A study of Mus musculus with 6 samples.

Results

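The genes described here are 10 mouse genes of the integrated stress response or tied to it, taken as a group for upstream open reading frames (uORFs), short reading frames in the 5′UTR ahead of the coding sequence (CDS). They were taken by name from the 23698 gene rows of the deposited counts, and all 10 were found, each in a row of its own. They comprise the transcription factor genes *Atf4*, *Atf5* and *Ddit3*, the phosphatase subunit genes *Ppp1r15a* and *Ppp1r15b*, the eIF2α kinase genes *Eif2ak3* and *Eif2ak4*, and *Ifrd1*, *Slc35a4* and *Ibtk*. The cells were cultured squamous cell carcinoma cells (SCCc), keratinocytes of P0 mouse back skin with the genotype HrasG12V; Tgfbr2 fl/fl KO, used at passages 10 to 15 with no treatment named in the labels. One ribosome profiling library and 2 RNA-seq replicates of these cells were used, and the long-read samples of SCCc, of wild-type keratinocytes and of epidermal stem cells were not analysed here. Nor were 2 more ribosome profiling libraries of the carcinoma cells, and libraries of wild-type keratinocytes, which the study drew from earlier work. The data therefore compare ribosome footprints with mRNA in 1 cell state and hold no stressed and unstressed pair. Nothing in the labels says that the RNA-seq replicates came from separate cultures, so their spread may be technical.

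In the integrated stress response, kinases that sense different stresses phosphorylate the initiation factor eIF2, which lowers the supply of initiator tRNA to ribosomes and slows most translation. A small group of mRNAs escapes this block through uORFs, which capture scanning ribosomes when initiator tRNA is plentiful and let more of them reach the CDS when it is scarce. ATF4, its relative ATF5 and CHOP, the product of *Ddit3*, then switch on genes for amino acid supply and cell death, and the products of *Ppp1r15a* (GADD34) and *Ppp1r15b* (CReP) bring a phosphatase to eIF2 that ends the response.

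The start sites of uORFs are what these 5′UTRs are known for, so some of 6 members are shown first, picked after values were seen. The counts hold no positions within a region and cannot be assigned to a site. Shown are the 9 bases before each upstream ATG, the ATG in capitals and the 9 bases after it, on the mRNA strand, from GENCODE M21 on GRCm38. *Atf4* has 3 upstream ATG triplets, at chr15:80255303-80255305, chr15:80255582-80255584 and chr15:80255681-80255683, all on the plus strand in the 5′UTR. The first opens a frame of 36 codons, and the second opens one of 3 codons that ends within the bases shown. The last opens a frame of 59 codons that overlaps the CDS by 83 nt in another frame.
Atf4 first site: ttttctctcATGgggccttta
Atf4 second site: gcggccaccATGgcgtattag
Atf4 last site: gcctaagccATGgcgctcttc
*Atf5* follows the same plan in the transcript with the longest CDS and a 5′UTR of 373 nt, with a frame of 3 codons at chr7:44816535-44816537 and one of 58 codons at chr7:44816404-44816406 that overlaps the CDS by 56 nt, both on the minus strand.
Atf5 first site: gcccgcgcaATGgctctgtag
Atf5 second site: ttcgccgccATGgagtcctcc
In *Ddit3* (chr10:127290829-127290831, plus strand) a frame of 34 codons that holds a further in-frame ATG ends before the CDS. In *Ppp1r15a* (chr7:45526087-45526089, minus strand) both complete coding transcripts share a frame of 26 codons. *Ppp1r15b* (chr1:133131517-133131519, plus strand) has a frame of 51 codons, and *Ifrd1* (chr12:40223156-40223158, minus strand) has a frame of 52 codons that is the single one in the 5′UTR of the transcript with the longest CDS.
Ddit3 site: gattatatcATGttgaagatg
Ppp1r15a site: gagggcgacATGaacccgctg
Ppp1r15b site: ctagccgggATGgacctaacc
Ifrd1 site: gagagaaacATGtatcgtttc

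Across the 10 genes, in the coding transcript with the longest CDS, 9 had an upstream ATG and *Eif2ak4* had none. Among all 20411 coding genes of the annotation 53.9% had one. A frame that runs from the 5′UTR into the CDS was present in 4 of the 10, *Atf4*, *Atf5*, *Ppp1r15a* and *Eif2ak3*, against 17.9% of all genes. In *Ppp1r15a* it is found in the transcript with a 5′UTR of 764 nt and not in the one of 283 nt, the length that was counted. The counted 5′UTRs of *Ddit3* (167 nt) and *Ppp1r15b* (581 nt) were shorter than the annotated ones, of 186 and 604 nt. Those of *Slc35a4* (765 nt), *Eif2ak3* (199 nt) and *Eif2ak4* (127 nt) also had the length of no complete coding transcript. Which upstream ATG triplets were counted in these genes cannot be told. The annotated 5′UTRs of the 10 genes were long, with a median of 470.5 nt against 168 nt, and the number of upstream ATG per kb of 5′UTR was 9.1 against 8.41 in all genes. *Slc35a4* held 18 of the 43 triplets, and without it the members had 6.9 per kb. Of the 43 triplets, 62.8% (72% without *Slc35a4*) had a purine at position -3 from the ATG, a base that favours initiation in mammals, against 52.1% of those in all genes. Without *Slc35a4* the members still had longer 5′UTRs than other genes, with a median of 373 nt, but no denser ATG triplets.

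**Figure D1:**
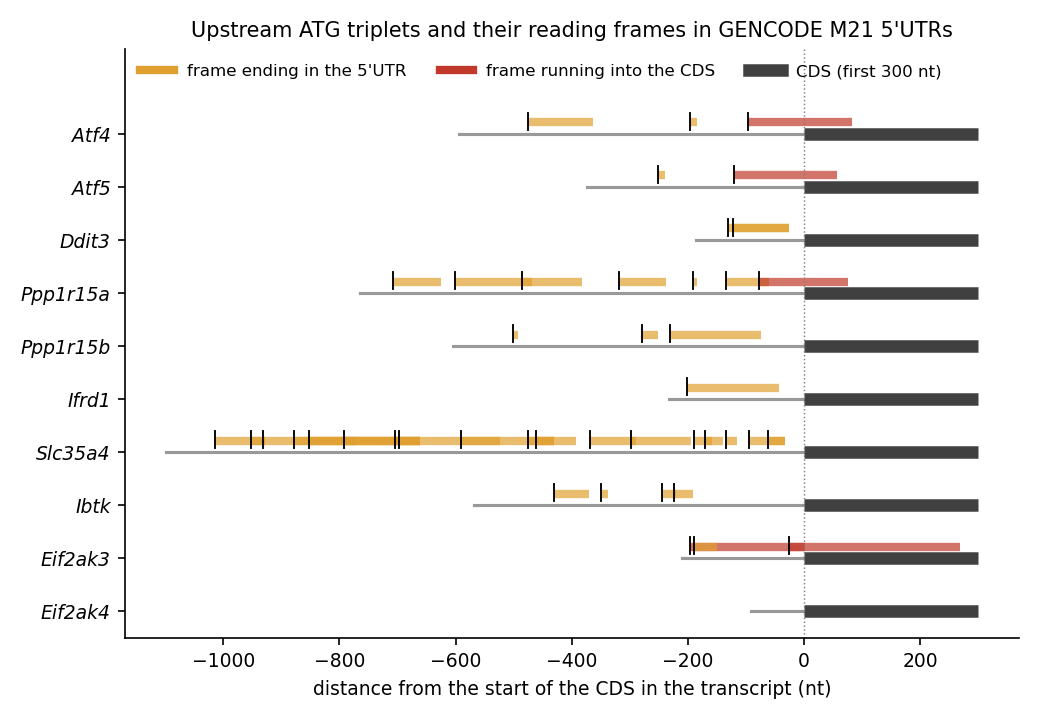
Upstream ATG triplets (black ticks) and their reading frames (bars) in the GENCODE M21 coding transcript with the longest CDS of each of the 10 genes, by distance in nt from the start of the CDS. Red frames run into the CDS, as in *Atf4* and *Atf5*, and orange frames end before it; *Slc35a4* has the longest 5′UTR, of 1099 nt, and *Eif2ak4* has no upstream ATG.

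The deposited counts on exons summed to 3549555 footprints, and to 10707930 and 14003713 reads in RNA-seq replicates 1 and 2. The 10 genes took 2875 footprints, 0.081% of the library, and 0.102% and 0.103% of the RNA-seq counts. Keratinocyte identity was clear, as all 8 marker genes were above 1 RPKM (counts per kb of length, scaled to the sum of exon counts) in both RNA-seq replicates, with *Krt5* at 7965 and 9483 RPKM. Of 6 fibroblast markers 4 were above 1 RPKM, and their summed level was 10 and 15.5 RPKM, with *Col3a1* the most abundant at 3.89 and 5.49 RPKM. Of 4 melanocyte markers *Pmel* alone passed this level, at 5.03 and 5.19 RPKM, and none of 3 endothelial and 3 immune markers passed it in both replicates. The immune markers summed to 1.03 and 3.42 RPKM, nearly all from *Cd74* at 0.95 and 3.24 RPKM, and *Cd3e* was at 0 in both.

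Density on a region is the estimated count over the counted length of that region, and the 5′UTR over CDS ratio is the log2 of the 2 densities within a library after adding 0.5 count to each region. A value of 0 means equal density on both regions. Genes were examined for it when their RNA-seq level was above 1 RPKM in both replicates, at least 30 nt of 5′UTR and 60 nt of CDS were counted, and the 5′UTR held at least 10 RNA-seq counts over both replicates. This left 5826 genes and 8 of the 10 members, without *Eif2ak3* and *Eif2ak4*. Footprints played no part in this choice.

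The footprints of these genes lay on the 5′UTR to an unusual degree, while their RNA-seq reads did not. Footprint density was at least 2-fold higher on the 5′UTR than over the CDS in 5 of the 8 members examined, *Slc35a4*, *Ddit3*, *Ppp1r15a*, *Atf5* and *Ifrd1*, where 6.83% of all genes examined reached this. The members' median 5′UTR over CDS ratio of footprints was 1.19 on the log2 scale, and that of all genes examined was -1.06. In RNA-seq the members' medians were -1.25 and -0.72 in replicates 1 and 2, close to the medians of all genes, -1.26 and -1.0. The ratio of footprints exceeded the mean ratio of RNA-seq at least 2-fold in 7 of 8 members, all but *Ibtk*, against 29.8% of all genes. With stricter minimums (a 5′UTR of 60 nt with 30 footprints and, in both replicates, 10 RNA-seq counts, and 10 CDS footprints), 4 members were left and 2 of them were at least 2-fold higher on the 5′UTR, against 7.85% of the 955 genes left. These minimums use the footprints themselves.

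**Figure D2:**
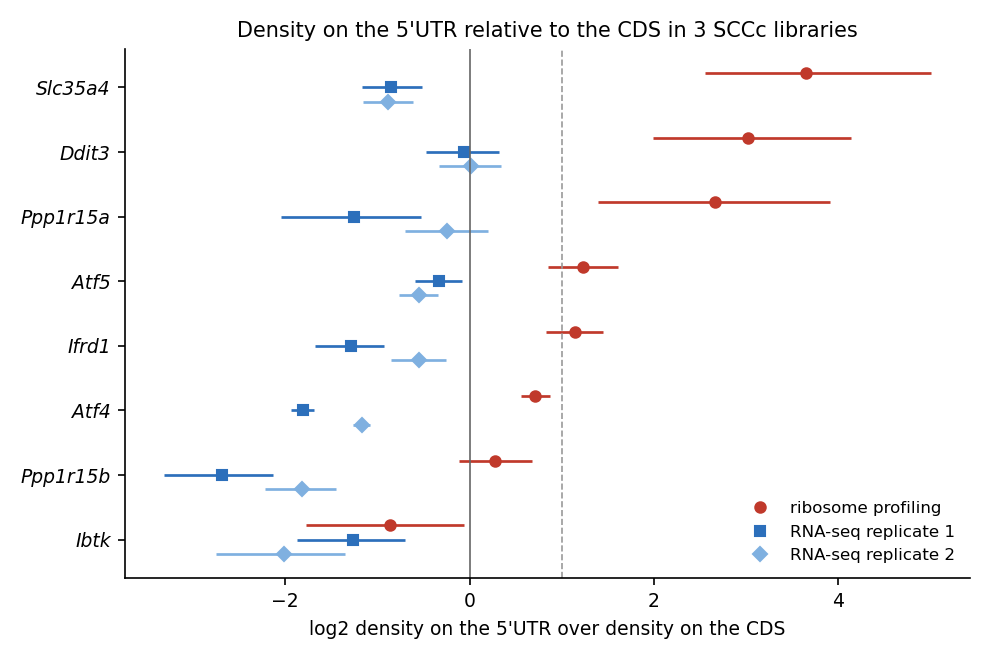
Log2 ratio of density on the 5′UTR to density on the CDS in the ribosome profiling library (red) and in RNA-seq replicates 1 and 2 (blue) for the 8 members examined, with Wilson 95% intervals for counting error; the dashed line marks 2-fold. Footprint ratios run from -0.86 in *Ibtk* to 3.65 in *Slc35a4*, and in 7 genes the footprint interval lies above both RNA-seq intervals.

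*Atf4*, the main effector of the response, had the most footprints of the 10 genes. Its 5′UTR of 594 nt held 645 footprints and its CDS of 1047 nt held 694, which is 1086 and 663 footprints per kb. RNA-seq density went the other way, with 989 per kb on the 5′UTR and 3477 per kb on the CDS in replicate 1, and 1936 and 4367 per kb in replicate 2. Of the footprints on both regions, 48.2% were on the 5′UTR (Wilson 95% interval 45.5 to 50.8), compared with 13.9% and 20.1% of the RNA-seq reads. Nearly 1 footprint on the *Atf4* 5′UTR was thus counted for each on the CDS. The 5′UTR over CDS ratio was 0.71 in footprints (0.56 to 0.87), under the 2-fold mark but above 89.9% of the genes examined. Relative to RNA-seq it was 2.20 ± 0.45 (SD, n = 2 RNA-seq replicates), and the interval, like all those given here, covers counting error only, as reads copied by PCR do not count separate molecules.

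*Atf5*, a transcription factor of the same family, had 99.7 footprints on 293 nt of 5′UTR and 123 on 849 nt of CDS, or 340 and 145 per kb. In RNA-seq the CDS was the denser region, with values for 5′UTR and CDS of 527 and 665 per kb in replicate 1 and 744 and 1093 per kb in replicate 2. Its footprint ratio of 1.23 (0.85 to 1.61) stood at percentile 95.1 of the genes examined, and relative to RNA-seq it was 1.67 ± 0.16. The counted 5′UTR had the length of that of another annotated transcript, 293 nt, whose upstream ATG sites differ from those printed above. Both *Nup62* and *Il4i1* run across 82 nt of the longer annotated 5′UTR on the opposite strand.

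*Ddit3*, which encodes the cell death factor CHOP, had few footprints and most of them were on the 5′UTR. The 5′UTR of 167 nt held 25 footprints and the CDS of 504 nt held 9, or 150 and 17.9 per kb. RNA-seq density was even over the 2 regions, with 400 and 420 per kb in replicate 1 and 571 and 568 per kb in replicate 2. The share of footprints on the 5′UTR was 73.5% (56.9 to 85.4), where RNA-seq gave 24% and 25%. The footprint ratio of 3.02 (1.99 to 4.14) stood at percentile 99.7. The RNA-seq replicates differed little, so that the ratio relative to RNA-seq was 3.04 ± 0.05, and its error is set by the 34 footprints rather than by RNA-seq.

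The phosphatase subunit genes differed from each other. *Ppp1r15a*, the inducible one, had 9 footprints on 283 nt of 5′UTR and 10 on 1971 nt of CDS, or 31.8 and 5.07 per kb, and RNA-seq densities of 50.5 and 124 per kb in replicate 1 and 157 and 187 per kb in replicate 2. Its footprint ratio was 2.66 (1.39 to 3.91), at percentile 99.5 and at 3.40 ± 0.71 relative to RNA-seq. *Ppp1r15b*, the constitutive one, had 67 footprints on 581 nt and 199 on 2091 nt, or 115 and 95.1 per kb, against RNA-seq densities of 40.1 and 265 per kb in replicate 1 and 99.1 and 353 per kb in replicate 2. Its footprint ratio was 0.28 (-0.12 to 0.68), at percentile 83, and relative to RNA-seq it was 2.54 ± 0.62. In both genes the 5′UTR held a larger share of footprints than of RNA-seq reads, but footprint density was far from even in *Ppp1r15a* and nearly even in *Ppp1r15b*. The non-coding gene *Gm26616* covers the whole annotated *Ppp1r15b* 5′UTR, 604 nt, on the opposite strand.

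*Ifrd1*, a transcriptional co-regulator with a single uORF in the transcript with the longest CDS, had 112 footprints on 233 nt of 5′UTR and 293 on 1347 nt of CDS, or 480 and 218 per kb. RNA-seq gave 261 and 644 per kb in replicate 1 and 450 and 661 per kb in replicate 2. The footprint ratio was 1.14 (0.83 to 1.45), at percentile 94.5, and 2.06 ± 0.53 relative to RNA-seq. Footprints thus favoured the 5′UTR and RNA-seq reads the CDS. *Gm7008* covers all 233 nt on the opposite strand.

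*Slc35a4*, a nucleotide sugar transporter gene, stood furthest from even density. It had 141 footprints on 765 nt of 5′UTR and 5.17 on 384 nt of CDS, or 185 and 13.5 per kb, so that 96.5% of these footprints (92.1 to 98.5) were on the 5′UTR. In RNA-seq 52.5% and 51.9% were, at densities of 207 and 373 per kb in replicate 1 and 291 and 537 per kb in replicate 2. Its footprint ratio of 3.65 (2.55 to 5.01) was above 99.9% of the genes examined, and it was 4.51 ± 0.02 relative to RNA-seq. One frame in its 5′UTR has 103 codons and is annotated as the CDS of a shorter transcript. The counts do not tell whether that frame is among the 765 nt counted. Only 39.5% of the 972 nt of annotated CDS was counted, and a processed pseudogene, *Gm5866*, is 97.9% identical over 970 nt of the CDS and over none of the 5′UTR, so the CDS value is uncertain. *Apbb3* overlaps 152 nt of the 5′UTR on the opposite strand.

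*Ibtk*, a substrate adaptor of ubiquitin ligation, did not share this pattern. Its 11.4 footprints on 568 nt of 5′UTR and 154 on 4056 nt of CDS are 20 and 37.9 per kb. RNA-seq gave 43 and 105 per kb in replicate 1 and 29.2 and 121 per kb in replicate 2. The footprint ratio was -0.86 (-1.78 to -0.06), at percentile 56.2, and its interval overlapped those of both RNA-seq replicates, -1.87 to -0.70 and -2.75 to -1.35. Relative to RNA-seq it was 0.77 ± 0.53, and without replicate 1 it was 1.15, past the 2-fold mark.

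The kinase genes could not be examined in this way. *Eif2ak3*, which encodes the endoplasmic reticulum stress sensor PERK, had 7 footprints on 199 nt of 5′UTR and 63 on 3342 nt of CDS, or 35.2 and 18.9 per kb. Its 5′UTR had 0 RNA-seq counts in both replicates, while its CDS had 331 and 473. *Eif2ak4*, which encodes the amino acid sensor GCN2, had 0.0294 footprints on 127 nt of 5′UTR against 78.1 on the CDS. Its 5′UTR had 0 and 0.0792 counts in the RNA-seq replicates. Footprints on the 5′UTR were thus counted in *Eif2ak3* where RNA-seq found no read, and in *Eif2ak4* neither assay reached 1 count, so no ratio to RNA-seq is given for either.

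In 7 of the 8 members examined, all but *Ibtk*, the footprint interval lay above the intervals of both RNA-seq replicates, where 16.4% of all genes examined showed this. Ordered by footprint ratio the genes ran from *Slc35a4* through *Ddit3*, *Ppp1r15a*, *Atf5*, *Ifrd1*, *Atf4* and *Ppp1r15b* to *Ibtk*. Each neighbouring pair in this order had overlapping intervals, and the highest 3 rested on few CDS footprints, between 5.17 and 10. In RNA-seq the ratio was higher in replicate 2 than in replicate 1 in 5 of the 8 members, and its median difference over all genes examined was 0.24. Whether the counting used strand is not given in the sources used here, so reads of *Atf5*, *Ddit3*, *Ppp1r15b*, *Ifrd1*, *Slc35a4* and *Ibtk* cannot be told apart from those of genes that run across their 5′UTRs on the opposite strand.

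**Figure D3:**
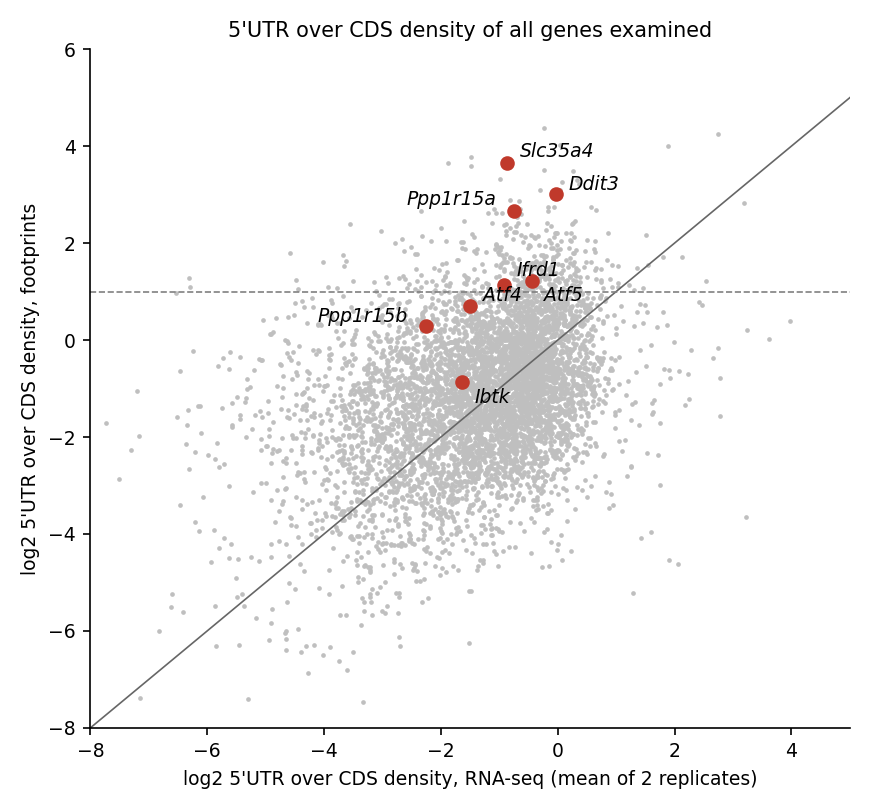
Log2 5′UTR over CDS density of footprints (vertical) against that of RNA-seq, mean of 2 replicates (horizontal), for the 5826 genes examined (grey) and the 8 members (red); the solid line marks equal ratios, the dashed line 2-fold higher footprint density on the 5′UTR, and 6 genes lie outside the axes. All 8 members lie above the solid line, and 5 lie above the dashed line.

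The 3′UTR had few footprints in these genes. Over the 10 members it held 39.5 footprints on 6693 nt, or 5.9 per kb, where the 5′UTR held 293 per kb and the CDS 79.7 per kb. Without *Atf4* these densities were 5.68, 147 and 48.2 per kb. *Atf5* alone held 18.4 of the 39.5 footprints on the 3′UTR, at 31 per kb, so the 3′UTR value rests largely on this gene. RNA-seq density on the 3′UTR was 328 and 394 per kb over the members together, and ranged in replicate 2 from 0 in *Ppp1r15a* to 1808 per kb in *Atf5*. Over 5763 genes examined with a 3′UTR of at least 30 nt, footprints per kb were 4.78 on the 3′UTR, 80.7 on the 5′UTR and 218 on the CDS. Summed over genes, the order of 5′UTR and CDS was thus reversed in the members, and the 3′UTR was lowest in both sets.

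Translational efficiency (TE) sets footprints on the CDS against the mRNA level, as the log2 ratio of footprint RPKM on the CDS to the mean RNA-seq RPKM on exons, relative to the median of the 9863 genes with more than 1 RPKM in both RNA-seq replicates and a mean normalised count above 25. All 10 members passed. Their median TE was -1.22, with TEs from -3.35 to 0.08, and none reached a TE above 1, which 20.8% of all genes did. A TE below -1 was found in 6 of the 10, *Ppp1r15a*, *Slc35a4*, *Ddit3*, *Atf5*, *Eif2ak4* and *Eif2ak3*, against 21.1% of all genes.

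The lowest 3 were well expressed as mRNA and had almost no footprints on the CDS. *Ppp1r15a* was at 10.3 and 12.6 RPKM in RNA-seq replicates 1 and 2. Its TE was -3.35 ± 0.21 (SD, n = 2, with a counting error of 0.46), at percentile 1.75 of all genes. The ± of a TE, here and below, comes from RNA-seq replicates set against the same footprint library, so it leaves out footprint error. *Slc35a4* was at 29.1 and 29.7 RPKM with a TE of -3.30 ± 0.03 and a counting error of 0.64. Only 39.5% of its annotated CDS was counted and a pseudogene nearly matches that CDS, so this TE is uncertain. *Ddit3* was at 33.5 and 35.6 RPKM with a TE of -3.12 ± 0.07 and a counting error of 0.48. With a pseudocount of 1 RPKM in both assays the TEs were -2.67 in *Ppp1r15a*, -2.98 in *Slc35a4* and -2.87 in *Ddit3*, in another order. Their counting errors exceeded the differences between them, so their order is not resolved.

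*Atf5* followed at -1.39 ± 0.13, with 79.6 and 89.3 RPKM. *Eif2ak4* (8.84 and 8.5 RPKM) and *Eif2ak3* (9.1 and 9.57 RPKM) had TEs of -1.28 ± 0.03 and -1.16 ± 0.06, low values in genes with few or no footprints counted on the 5′UTR. With RNA-seq counted over the CDS instead of all exons, *Atf5* was at -0.82 and *Eif2ak3* at -0.91, short of 2-fold, and 4 of the 10 members remained below -1, against 19.5% of all genes. Under a filter of 100 counts or more per library 2 of 5 members were below -1, against 15.7% of the 4829 genes left. *Atf4* was the most abundant mRNA of the 10, at 229 and 237 RPKM, percentile 99 in both replicates. Its TE of -0.66 ± 0.05 stood at percentile 28.8. Footprints on frames that run into the CDS, by 83 nt in *Atf4* and 56 nt in *Atf5*, can be counted as CDS. They would enter both TE and the 5′UTR over CDS ratio. *Ppp1r15b* (-0.14 ± 0.03), *Ibtk* (0.00 ± 0.18) and *Ifrd1* (0.08 ± 0.19) were near the median of all genes.

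High footprint density on the 5′UTR and low TE met in 4 of the 8 members examined, *Slc35a4*, *Ddit3*, *Ppp1r15a* and *Atf5*, against 4.33% of the 5750 genes that had both measures. With RNA-seq counted over the CDS *Atf5* was lost and they met in 3 of 8, against 4.21%. They did not meet in *Ifrd1*, whose 5′UTR held 2.21 times the footprint density of a CDS translated at the typical rate. The CDS density of footprints enters both measures, in opposite directions, so a gene with few CDS footprints is moved on both. In *Slc35a4* that density is uncertain, as given above.

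Other genes of the pathway had higher median TEs. Of 20 core genes of the response without the members (kinases, subunits of eIF2 and of its exchange factor eIF2B, phosphatase and reinitiation factors), all 20 passed. A TE above 1 was found in 8 and one below -1 in 1, against 20.8% and 21.1% of all genes. Their median was 0.55, with 7 genes under the median of all genes. With RNA-seq over the CDS the count above 1 fell to 4 and the median to 0.35. No share of all genes above 1 is given here for RNA-seq over the CDS, so this count of 4 cannot be set against all genes. The subunit genes of eIF2 itself were high, with *Eif2s2* at 2.45 ± 0.10 and *Eif2s1* at 2.27 ± 0.16, of whose CDS 53.4% was counted and whose TE was 1.02 with RNA-seq over the CDS. *Ppp1cc*, a catalytic subunit of the phosphatase, was at 3.01 ± 0.24 on 14% of its CDS. The lowest were *Eif2d*, a factor for reinitiation, at -1.34 ± 0.03, then *Eif2a* at -0.41 ± 0.13 and *Gcn1l1*, the partner of GCN2, at -0.39 ± 0.14. Among the 12 examined on the 5′UTR none had 2-fold higher footprint density there, a count near the 6.83% of all genes, and none was 2-fold above RNA-seq, against 29.8%. Their median footprint ratio was -1.36, against 1.19 in the uORF genes and -1.06 in all genes.

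Among 34 target genes of ATF4 and CHOP, 31 passed, 12 with a TE above 1 and 1 below -1, against 20.8% and 21.1% of all genes. Their median was 0.70, with 9 genes under the median of all genes. With RNA-seq over the CDS the median was 0.71 and none was below -1, where 19.5% of all genes were below -1. The highest were *Cebpb* at 2.57 ± 0.09 on 48.9% of its CDS, the stress factor *Atf3* at 2.28 ± 0.54 from 30.8 footprints, and the cystine transporter gene *Slc7a11* at 2.11 ± 0.34. The lowest were *Ddit4*, an inhibitor of mTORC1, at -1.07 ± 0.24 (-0.98 with RNA-seq over the CDS), *Sesn2* at -0.65 ± 0.13 and *Nupr1* at -0.57 ± 0.07. The counting error of *Nupr1* was 0.23. Of the 23 targets examined on the 5′UTR none had 2-fold higher footprint density there, and 3 were at least 2-fold above RNA-seq, *Trib3* (1.54), *Cars* (1.08) and *Sesn2*, where the shares of all genes were 6.83% and 29.8%. Their median footprint ratio was -1.43.

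The unfolded protein response, which shares PERK with this pathway, gave the highest median. All 19 of its genes passed, 12 with a TE above 1 and none below -1, against 20.8% and 21.1% of all genes. The median was 1.47, with 2 genes under the median of all genes. With RNA-seq over the CDS the median was 1.34. The endoplasmic reticulum proteins *Manf* (3.50 ± 0.03, and 2.09 with RNA-seq over the CDS), *Sdf2l1* (2.78 ± 0.07) and *Calr* (2.33 ± 0.04) were highest. The lowest were the sensor *Ern1* at -0.65 ± 0.01, *Edem1* at -0.39 ± 0.02 and *Sel1l* at 0.08 ± 0.05. Their counting errors were 0.27, 0.13 and 0.08. Of the 11 examined on the 5′UTR, none had 2-fold higher footprint density there, a count near the 6.83% of all genes, and their median ratio was -1.88. Relative to RNA-seq 4 of the 11 were at least 2-fold higher, *Herpud1* (2.06), *Sel1l* (1.75), *Calr* (1.46) and *Dnajb11* (1.42), against 29.8% of all genes, with a median of 0.03, near the 0.15 of all genes.

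**Figure D4:**
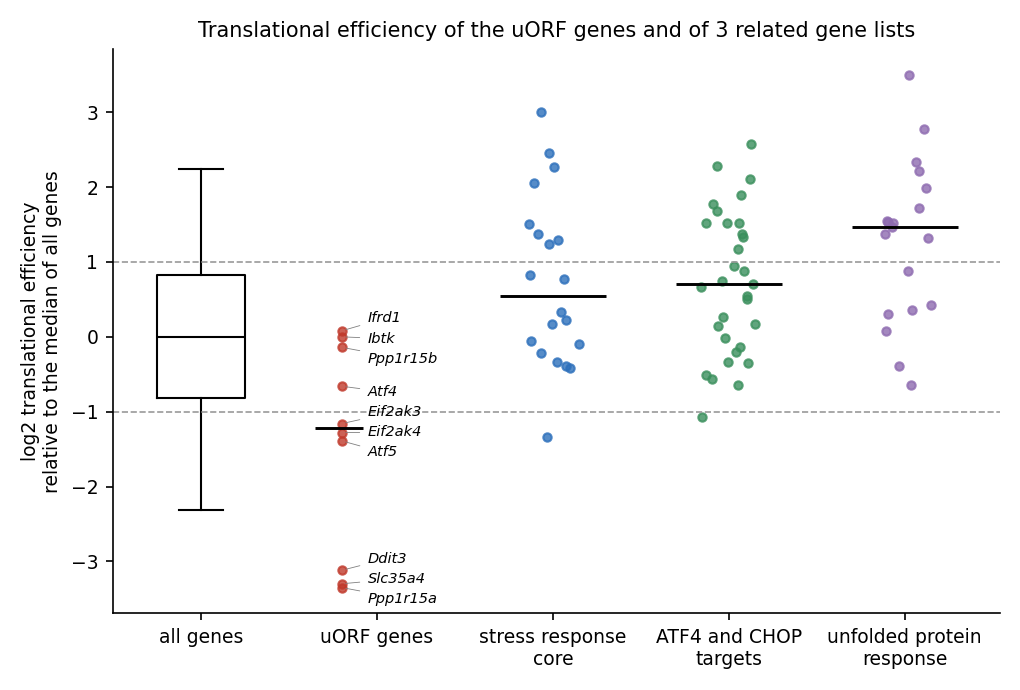
Log2 translational efficiency of all 9863 genes (box with quartiles and whiskers at percentiles 5 and 95), the 10 uORF genes and 3 lists of related genes, 1 point a gene, with the median of each as a black line and dashed lines at 2-fold. The uORF genes have a median of -1.22, and the lists have medians of 0.55, 0.70 and 1.47.

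The genes most like *Atf4* over 3 measures (5′UTR over CDS ratio in footprints, the same in RNA-seq, and TE, each divided by its SD over 5750 genes measured in 3 libraries) were *Brwd3*, *Fam160a1*, *Huwe1*, *Arnt* and *Osbpl2*. Their distances from *Atf4* were between 0.1 and 0.203, and their footprint ratios between 0.42 and 0.98. They had far fewer 5′UTR footprints than the 645 of *Atf4*, with 6 in *Brwd3*, 7 in *Fam160a1*, 11.8 in *Arnt*, 25.2 in *Osbpl2* and 51.2 in *Huwe1*. The nearest members were *Ppp1r15b*, at rank 281 of 5749 genes, and *Ifrd1*, at rank 286. *Atf5* was at rank 691 and *Ibtk* at rank 1067. The members furthest from *Atf4* were *Ppp1r15a*, *Ddit3* and *Slc35a4*, at ranks 4136, 4466 and 4721, with between 5.17 and 10 CDS footprints. On these measures the uORF genes thus did not form a tight group.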

How the data were processed

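The authors trimmed reads with Trim Galore, removed ribosomal, mitochondrial and tRNA matches from the footprints with Bowtie2 2.4.1 and aligned to GRCm38 with STAR 2.6.1. Plastid then gave, for every gene, the estimated counts on exons, CDS and each UTR that the authors deposited, which need not be whole. The RPKM deposited by the authors uses a larger library total, so RPKM was computed again from the sum of exon counts. Counted lengths were the same in the 3 libraries, and the annotation used for counting is not given in the sources used here.

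Members and gene lists were chosen with earlier results of these data known. No test was run, since 1 ribosome profiling library was used. Intervals are Wilson 95% intervals of the 5′UTR share of counts, turned into density ratios. A chi-square of 7.52 per degree of freedom over 9863 genes showed that the RNA-seq replicates were not 1 library deposited again. DESeq2 1.42.0 size factors, from counts rounded to whole numbers, gave the mean normalised count. Named genes were the 10 members, the 3 highest and 3 lowest in TE of each list, the 5 nearest to *Atf4* and, a rule set after values were seen, the list genes whose 5′UTR over CDS ratio was at least 2-fold above RNA-seq. Marker genes were named by level. Upstream ATG triplets came from GENCODE M21, and copies of at least 100 nt and 95% identity from blastn 2.17.0. Python 3.11.15, numpy 2.4.6, pandas 2.3.3 and, for TMM factors, edgeR 4.0.16 were used. The calculations were tested on simulated counts, with changes placed only in genes with more CDS footprints than *Slc35a4*, *Ddit3* and *Ppp1r15a* have. Other settings tried were single RNA-seq replicates, pseudocounts, filters, scaling and RNA-seq over the CDS.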

Additional observations from a re-analysis of the deposited data

How the results depend on the processing

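Over the alternatives tried, no value for the members as a whole or for a single member past 2-fold changed sign. A filter cannot change the 5′UTR over CDS ratio of a member it keeps, so the unchanged sign there says nothing of stability. The count of members at least 2-fold higher on the 5′UTR was 4 or 5 in all but the strictest filter (minimums on the length, footprints and RNA-seq counts of the 5′UTR and on CDS footprints), which left 4 members and a count of 2. The median TE of -1.22 was -0.87 with RNA-seq over the CDS, -1.07 with a pseudocount of 1 RPKM and -1.26 with no filter on level. It was -1.16 when at least 80% of the annotated CDS had to be counted, an alternative chosen after seeing the data that left out *Slc35a4*. With at least 100 counts in every library, a filter that uses the CDS footprints themselves, the 5 members with the fewest were left out, the median TE of the others was -0.53 and 2 of them were below -1, *Atf5* and *Atf4*, against 15.7% of the 4829 genes left. The rise in the median came from the members left out, as the TE of each one kept was lower, with *Ifrd1* at -0.31. The filter also changes the median to which TE is set. Without RNA-seq replicate 1 or 2 the median ratio relative to RNA-seq was 2.00 or 2.75, and 6 members stayed below -1 in TE. The filter on deposited RPKM left the median TE at -1.22 and the count at 6. Scaling by TMM or DESeq2 factors nearly cancels by construction, as TE is set to the median of all genes, and says nothing of stability. For single members, *Ibtk* relative to RNA-seq was 1.15 without replicate 1, and the TE of *Atf4* was -1.05 with at least 100 counts. The TEs of *Atf5* and *Eif2ak3* were -0.82 and -0.91 with RNA-seq over the CDS, no longer below -1.

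No paired analysis was possible because the ribosome profiling library carries no replicate number and no test was run. A single ribosome profiling library was used, and 2 more that the study drew from earlier work were not analysed here. The library used had 9 CDS footprints in *Ddit3*, 10 in *Ppp1r15a* and 5.17 in *Slc35a4*, and the files give no positions within a region, so no footprint can be assigned to a given uORF.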

Other observations

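Among 5564 genes examined on the 5′UTR and matched by name to GENCODE M21, the footprint ratio rose with the number of upstream ATG triplets. Its median was -1.46 in 2335 genes with none, -0.93 in 1226 genes with 1, -0.65 in 659 genes with 2 and -0.52 in 1344 genes with 3 or more. Relative to RNA-seq the medians were -0.22, 0.30, 0.57 and 0.55, with no rise from 2 to 3 or more. The median TE ran the other way, from 0.35 through 0.02 and -0.28 to -0.43. Footprint density was at least 2-fold higher on the 5′UTR than over the CDS in 1.8% of genes with no upstream ATG and in 12.5% of those with 3 or more. In 928 genes with a frame that runs into the CDS this share was 14.1%, with a median TE of -0.31. Genes with more upstream ATG triplets also have longer 5′UTRs, and the part of length in these values was not tested.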
